A study of Mus musculus with 4 samples.

Results

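The genes described here are 10 components and targets of the YAP and TAZ pathway in mouse epidermis: Yap1, Wwtr1, Tead1, Tead3, Lats2, Ctgf, Cyr61, Amotl2, Ajuba and Axl. They were picked by symbol as named genes of the pathway, with earlier results of these data known, and make up 10 of the 45803 symbols in the deposited expression table. The tested animals (cKO) carried Cre under the keratin 14 promoter and 2 floxed copies of Mettl14 (K14Cre,Mettl14F/F), and the controls carried the same Cre with a single floxed copy beside a wild-type copy (K14Cre,Mettl14F/+). Epidermal keratinocytes were taken at postnatal day 0, and there were 2 cKO and 2 control libraries, numbered 1 and 2 in the labels. Cre was thus present in every library, and the controls have a single intact Mettl14 copy in cells that express Cre. Mettl14 encodes a subunit of the enzyme that writes N6-methyladenosine on RNA. The labels do not say whether the libraries of a genotype came from separate animals, so p-values here reflect only the scatter among these 4 libraries, part or all of which could be technical.

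YAP (gene Yap1) and TAZ (gene Wwtr1) are coactivators that carry no DNA-binding domain and act through the TEAD transcription factors. The Hippo kinases LATS1 and LATS2 phosphorylate them, which holds them in the cytoplasm, and contact between cells, stretch and matrix stiffness shift that balance. In mouse epidermis, YAP is active in the basal layer and supports the proliferation of progenitors. The pathway acts mainly through the phosphorylation and location of its proteins, which RNA levels do not report. Ctgf, Cyr61, Axl, Amotl2 and Lats2 are known transcriptional targets, and the last 2 of these in turn restrain YAP and TAZ.

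The promoters of these genes are shown first because TEAD factors bind a short core, GGAATG, which reads CATTCC on the other strand. RefSeq promoter windows (GRCm38.p6, 250 bases before to 50 after each start) were matched for 8 of the 10 genes, the exceptions being Tead1 and Ctgf, with 12 windows in all. At least 1 core was found in 10 of the 12 windows and in each of the 8 genes, against 14.66% of all 32851 windows and 14.31% of the 9557 tested genes with a window. A match describes these letters and does not show binding. The stretches below run 5′ to 3′ on the gene's own strand, with the cores in capitals. Flanks are shorter where they would meet an annotated exon, run past the start or leave the window, and Tead3 is shown at the inner of its starts.
Yap1 (chr9:8004690-8004779, minus strand): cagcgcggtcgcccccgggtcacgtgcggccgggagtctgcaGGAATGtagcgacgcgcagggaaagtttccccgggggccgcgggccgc
Wwtr1 (chr3:57575999-57576088, minus strand): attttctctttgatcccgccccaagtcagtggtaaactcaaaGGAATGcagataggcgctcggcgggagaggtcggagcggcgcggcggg
Tead3 (chr17:28350697-28350735, minus strand): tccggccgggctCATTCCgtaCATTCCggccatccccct
Lats2 (chr14:57746102-57746131, minus strand): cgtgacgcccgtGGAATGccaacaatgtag
Cyr61 (chr3:145650041-145650130, minus strand): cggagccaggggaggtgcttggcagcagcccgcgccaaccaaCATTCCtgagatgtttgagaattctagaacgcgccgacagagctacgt
Amotl2 (chr9:102717727-102717756, plus strand): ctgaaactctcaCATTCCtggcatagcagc
Ajuba (chr14:54577778-54577889, minus strand): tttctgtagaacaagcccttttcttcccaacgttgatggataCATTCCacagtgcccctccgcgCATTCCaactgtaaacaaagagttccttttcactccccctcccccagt
Axl (chr7:25788919-25788983, minus strand): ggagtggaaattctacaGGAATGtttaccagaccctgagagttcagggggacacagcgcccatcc

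The cores lay at different distances from the start. Counting from the start, the core began at position -103 in Cyr61 and -65 in Amotl2, whereas in Axl it lay at -233 and in Lats2 just past the start. Ajuba carried a pair of cores within 1 stretch. The inner Tead3 window held 3 cores, the pair shown and another at position 2 past the start, and the outer Tead3 window held 1 at -182. The AP-1 sites TGACTCA and TGAGTCA, at which AP-1 factors often sit beside TEAD factors in human cancer cells, were searched as given; they are each other's reverse complement, so both strands were covered. They were found in 0 of the 8 genes, against 4.81% of tested genes, and 8 genes are too few to tell these apart. Of the other pathway genes, 6 of 18 Hippo kinases and scaffolds, 3 of 5 TEAD or VGLL genes and 3 of 11 further YAP and TAZ targets with a window held the core. Ptpn14, which held it, was counted in both the Hippo and the target list.

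**Figure D1:**
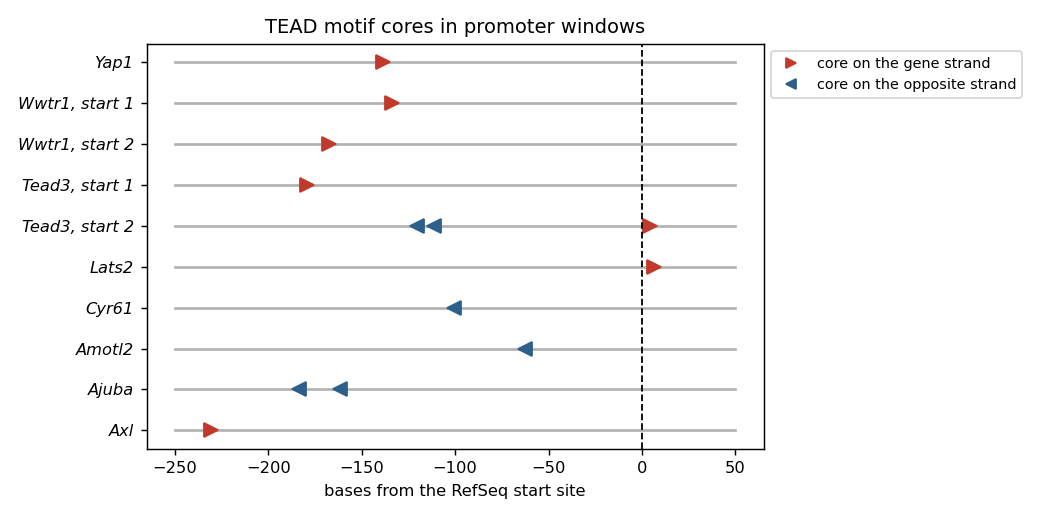
Each line is a RefSeq promoter window of a member that holds at least 1 TEAD core, from 250 bases before to 50 after the start site (dashed line), with distance in bases on the x axis. Right-pointing red triangles mark cores on the gene strand and left-pointing blue ones cores on the other strand; all 8 genes with a window have at least 1.

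The libraries had implied depths of 16892649 and 25696205 reads or fragments in cKO 1 and cKO 2, and 17376266 and 23399432 in control 1 and control 2. The deposited values, taken as FPKM (reads or fragments per kilobase of transcript, scaled to the depth of the library), were summed over the transcripts of each gene. Across genes, log2 values correlated at r = 0.977 between cKO 1 and control 1 and at 0.9755 between cKO 2 and control 2, against 0.956 between the cKO libraries and 0.966 between the controls. Libraries of the same number were therefore more alike than libraries of the same genotype, and differences within each number are given beside the pooled ones. The targeted gene, Mettl14, measured 5.89 and 3.79 FPKM in cKO 1 and cKO 2, against 7.00 and 6.40 FPKM in control 1 and control 2. Both cKO libraries lay below both controls, as was so for 16.6% of all genes tested. The log2 difference of Mettl14 was -0.42 ± 0.26 (SE), with -0.22 within number 1 and -0.63 within number 2, and did not pass (limma adjusted p = 0.959). It was -0.70 with limma-voom, -0.68 without cKO replicate 1 and -0.16 without cKO replicate 2. Keratinocyte markers were at high levels, with Krt10 and Krt14 at 5382 to 15342 and 1435 to 2550 FPKM over the 4 libraries, while all 6 endothelial markers, Pecam1 and Kdr being the most abundant, stayed under 1 FPKM in every library.

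With genotype alone in the fit, none of the 10 genes passed the test between cKO and control. Of them, 8 differed by less than their standard error. Axl was higher in both cKO libraries than in both controls, and Wwtr1 was lower in both cKO libraries than in both controls. The classical targets Ctgf and Cyr61 overlapped between genotypes. With limma's moderated test on log2(FPKM + 1), which makes fold changes of weakly expressed genes look smaller than they are, the members' adjusted p lay between 0.959 and 0.997, and 0 members had an unadjusted p under 0.05. Over all 13817 genes tested, 0.0% passed at an adjusted p under 0.05 and 4.96% (686 genes) at an unadjusted p under 0.05, and the count was 0 as well when limma-voom was fitted to the recovered reads. When 1 library was left out, 9 to 71 genes passed, none of them a member. With the replicate number added as a block, 900 genes passed, and 1 of them was a member, Axl. The labels do not state that numbers pair libraries. Libraries did not overlap for 2 of the 10 members, against 32.9% of all genes tested. The median log2 difference of the members was 0.00, beside -0.03 for all genes. When any 1 library was left out, 7 of the 10 differences turned sign at least once, the exceptions being Wwtr1, Amotl2 and Axl. With limma-voom on recovered reads, Tead1 and Lats2 turned sign as well.

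**Figure D2:**
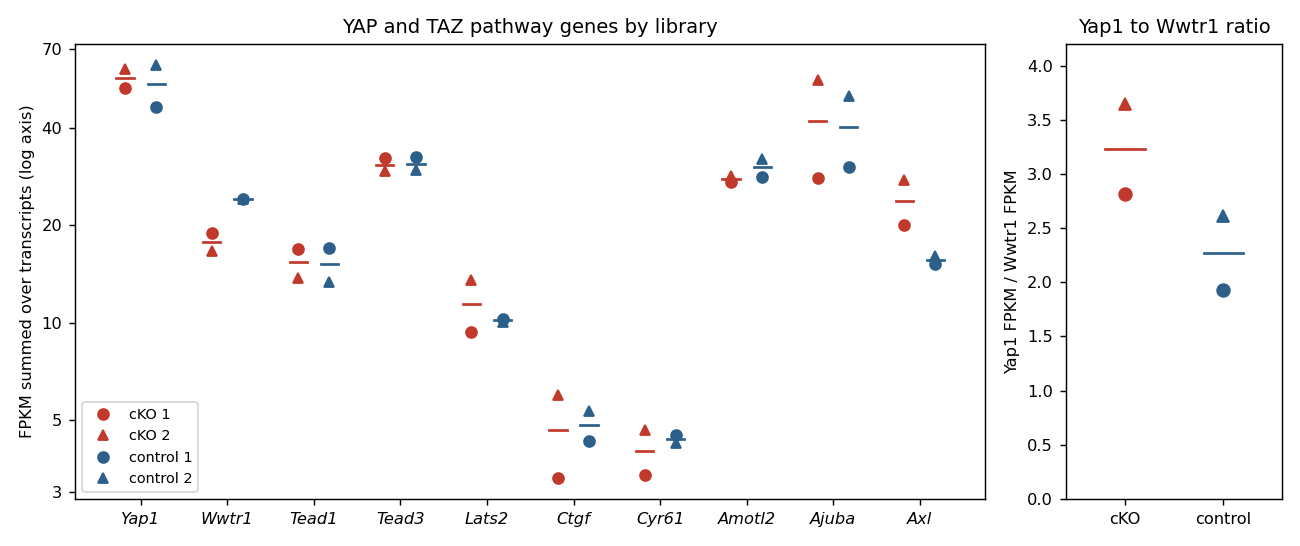
Left, FPKM of each gene per library on a log axis, cKO (red) left of control (blue), with circles for number 1, triangles for number 2 and bars for the mean of 2 libraries. Right, the ratio of Yap1 to Wwtr1 FPKM, which was 2.81 and 3.65 in cKO and 1.93 and 2.61 in control.

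FPKM divides by transcript length, so levels can be set beside each other between genes. On this scale, averaged over the 4 libraries, Yap1 was highest at 55.8 FPKM, followed by Ajuba (41.2), Tead3 (30.9), Amotl2 (29.0), Wwtr1 (20.9), Axl (19.7), Tead1 (15.3), Lats2 (10.8), Ctgf (4.73) and Cyr61 (4.19). Neighbours in this order overlapped in their ranges except Amotl2 and Wwtr1, and Lats2 and Ctgf. Genes further apart in the order can still overlap, as Axl in cKO 2 (27.6 FPKM) lay above Amotl2 in cKO 1 (27.2 FPKM). Ctgf and Cyr61, at 3.30 to 5.99 FPKM, lay below every value of the other 8 genes on these sums over all transcripts. By annotated coding transcripts only, Tead3 measured 11.4 and 4.60 FPKM in cKO 1 and cKO 2. In control 1 and control 2 it measured 8.42 and 13.3 FPKM. On that count Tead3 in cKO 2 lay below Ctgf in the same library (5.99 FPKM), though a Tead3 transcript outside the annotation is left out. Implied reads per gene and library ran between about 115, for Cyr61 in cKO 1, and about 6465, for Yap1 in cKO 2.

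Of the coactivators, Yap1 (ENSMUSG00000053110, GRCm38 chromosome 9, 7931999 to 8004596) measured 53.3 and 60.8 FPKM in cKO 1 and cKO 2, against 46.4 and 62.8 FPKM in control 1 and control 2. The cKO values lay between the controls. The log2 difference was 0.07 ± 0.24 (SE), with 0.20 within number 1 and -0.05 within number 2. Its 95% interval ran from -0.53 to 0.68.

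Wwtr1 (ENSMUSG00000027803, chromosome 3, 57455649 to 57575910) measured 18.95 and 16.7 FPKM in cKO 1 and cKO 2, against 24.0 and 24.0 FPKM in control 1 and control 2. Both cKO libraries lay below both controls. The log2 difference was -0.42 ± 0.20 (SE; 95% interval -0.90 to 0.07), at percentile 9.41 of all genes tested, with -0.33 within number 1 and -0.50 within number 2. It did not pass limma's test (unadjusted p = 0.0814, adjusted p = 0.959), and 16.6% of all genes were likewise lower in both cKO libraries. With the replicate number as a block it did not pass either (limma unadjusted p = 0.00927, adjusted p = 0.0822). The labels state no such pairing. The difference stayed between -0.50 and -0.33 when any 1 library was left out. An antisense gene, Gm16016, overlaps Wwtr1 and was listed at 1.29 and 0.57 FPKM in cKO 1 and cKO 2 and at 1.78 and 1.32 FPKM in control 1 and control 2; reads of the 2 strands cannot be told apart here.

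As Yap1 differed little and Wwtr1 was lower, the ratio of the coactivators was higher in cKO. It was 2.81 and 3.65 in cKO 1 and cKO 2 and 1.93 and 2.61 in control 1 and control 2, so both cKO values lay above both controls. The log2 difference was 0.51, with 0.54 within number 1 and 0.48 within number 2. An exact two-sided permutation test gave p = 0.333, the smallest p that 2 against 2 libraries allow. This ratio was chosen after the values were seen.

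**Figure D3:**
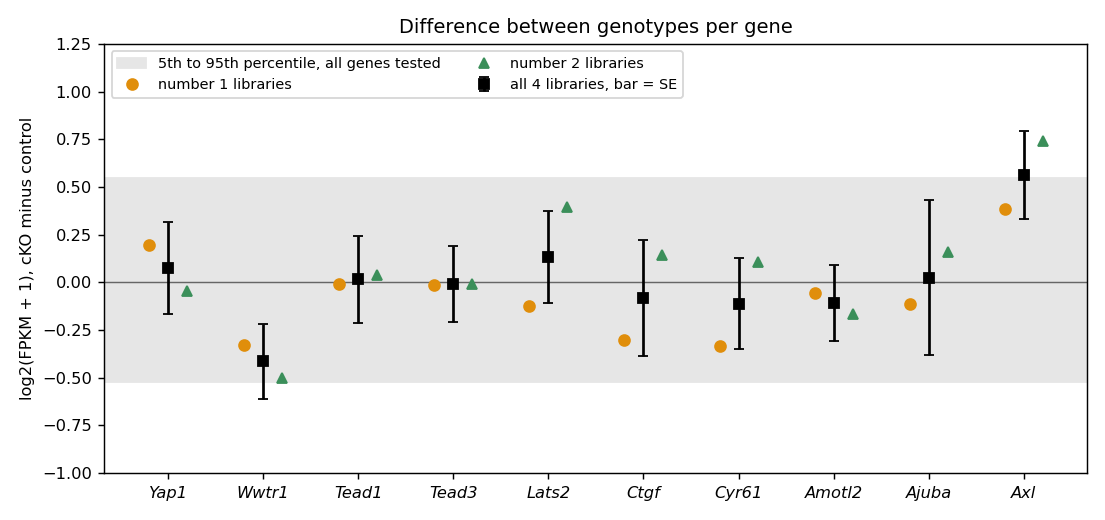
Log2(FPKM + 1) in cKO minus control for each gene, with squares and SE bars for all 4 libraries, circles for the number 1 libraries and triangles for the number 2 libraries. The grey band spans the 5th to 95th percentile of all 13817 genes (-0.52 to 0.54); Axl at 0.56 lies just above it and the other 9 genes lie inside.

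Of the DNA-binding partners, Tead1 and Tead3 differed between genotypes by less than their standard error when all transcripts were summed. Tead1 (ENSMUSG00000055320, chromosome 7, 112679318 to 112906807) measured 16.9 and 13.8 FPKM in cKO 1 and cKO 2, against 17.1 and 13.4 FPKM in control 1 and control 2, a log2 difference of 0.02 ± 0.23 (SE; 95% interval -0.55 to 0.58). Tead3 (ENSMUSG00000002249, chromosome 17, 28331671 to 28350817) measured 32.2 and 29.4 FPKM in cKO 1 and cKO 2, against 32.5 and 29.6 FPKM in control 1 and control 2, a log2 difference of -0.01 ± 0.20 (SE; 95% interval -0.50 to 0.48). For both genes the number 1 libraries were higher than the number 2 libraries in each genotype, by more than the genotypes differed. Of the other TEAD genes, Tead4 measured 8.12 and 8.58 FPKM in cKO 1 and cKO 2, against 5.85 and 6.05 FPKM in control 1 and control 2. Its log2 difference of 0.43 ± 0.20 (SE), with 0.41 and 0.44 within numbers 1 and 2, did not pass (limma unadjusted p = 0.0807, adjusted p = 0.959). Tead2 overlapped between genotypes, at 4.87 and 8.36 FPKM in cKO 1 and cKO 2 and 4.88 and 7.42 FPKM in control 1 and control 2.

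Among the genes that restrain YAP and TAZ, the kinase gene Lats2 (ENSMUSG00000021959, chromosome 14, 57689662 to 57758388) measured 9.33 and 13.5 FPKM in cKO 1 and cKO 2, against 10.3 and 10.1 FPKM in control 1 and control 2. The log2 difference was 0.13 ± 0.24 (SE), with -0.13 within number 1 and 0.39 within number 2, so its direction was not shared by the numbers. Amotl2 (ENSMUSG00000032531, chromosome 9, 102716672 to 102733418), an angiomotin family protein that can hold YAP at junctions, measured 27.2 and 28.5 FPKM in cKO 1 and cKO 2, against 28.3 and 32.1 FPKM in control 1 and control 2. The ranges just overlapped, and the log2 difference was -0.11 ± 0.20 (SE), lower within both numbers (-0.05 and -0.17). Ajuba (ENSMUSG00000022178, chromosome 14, 54567472 to 54577558) encodes a LIM domain protein of cell junctions that inhibits LATS kinases. It measured 28.0 and 56.3 FPKM in cKO 1 and cKO 2, against 30.4 and 50.3 FPKM in control 1 and control 2, a log2 difference of 0.02 ± 0.41 (SE; 95% interval -0.98 to 1.03). Ajuba followed the library number and not the genotype: the number 2 library was 2.01-fold higher than the number 1 library in cKO and 1.65-fold higher in control.

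The secreted matricellular targets were low and overlapped. Ctgf (ENSMUSG00000019997, named Ccn2 in the annotation, chromosome 10, 24595442 to 24598683) measured 3.30 and 5.99 FPKM in cKO 1 and cKO 2, against 4.30 and 5.34 FPKM in control 1 and control 2. Cyr61 (ENSMUSG00000028195, named Ccn1 in the annotation, chromosome 3, 145646976 to 145649981) measured 3.37 and 4.64 FPKM in cKO 1 and cKO 2, against 4.50 and 4.23 FPKM in control 1 and control 2. In both genes cKO 1 was the lowest library and cKO 2 the highest. The log2 difference of Ctgf was -0.08 ± 0.30 (SE; 95% interval -0.83 to 0.67), with -0.30 within number 1 and 0.14 within number 2. For Cyr61 it was -0.11 ± 0.24 (SE; 95% interval -0.70 to 0.48), with -0.33 within number 1 and 0.11 within number 2.

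Axl, a receptor tyrosine kinase for the ligand Gas6, was the member with the largest difference (ENSMUSG00000002602, chromosome 7, 25757273 to 25788705). It measured 20.1 and 27.6 FPKM in cKO 1 and cKO 2, against 15.2 and 16.1 FPKM in control 1 and control 2, and both cKO libraries lay above both controls. That is 1.33-fold within number 1 and 1.72-fold within number 2. The log2 difference was 0.56 ± 0.23 (SE; 95% interval -0.01 to 1.14), at percentile 95.4 of all genes, and did not pass limma's test (unadjusted p = 0.0525, adjusted p = 0.959). With the replicate number as a block it did pass (limma adjusted p = 0.0467), in a fit where 900 genes passed. The labels state no such pairing. Of all genes tested, 16.2% were likewise higher in both cKO libraries. The difference was 0.34 without cKO replicate 2 and 0.78 without cKO replicate 1. Axl and Wwtr1 differed in opposite directions.

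Cells other than keratinocytes can express Axl, and bulk values cannot tell fewer cells of a type from less RNA per cell. All 7 leukocyte markers were lower in cKO within both numbers, and their summed FPKM was 174 and 267 in cKO 1 and cKO 2, against 305 and 372 in control 1 and control 2; the most abundant were Cd74 and Cd3g. The 8 fibroblast markers, led by Postn and Dcn, summed to 266 and 229 FPKM in cKO 1 and cKO 2. In control 1 and control 2 they summed to 357 and 321 FPKM. Of the 8, 4 were lower and 2 higher within both numbers. Their median log2 difference was -0.34 within number 1 and 0.01 within number 2. The 5 melanocyte markers, led by Dct and Pmel, summed to 378 and 397 FPKM in cKO 1 and cKO 2, against 486 and 419 FPKM in control 1 and control 2. The 6 muscle markers, led by Tagln and Acta2, summed to 3.92 and 2.84 FPKM in cKO 1 and cKO 2, against 6.38 and 4.82 FPKM in control 1 and control 2. These sums moved in the same direction as Wwtr1 and opposite to Axl, and their part in either difference was not tested. The 8 keratinocyte markers summed to 17504 and 12567 FPKM in cKO 1 and cKO 2. In control 1 and control 2 they summed to 20804 and 11740 FPKM. These sums overlapped, and Krt10 was the largest part of each. Single markers moved within both numbers, 3 lower and 2 higher in cKO. The lower ones, by log2 difference within numbers 1 and 2, were Krt5 (-0.84 and -0.46), Krt14 (-0.60 and -0.22) and Trp63 (-0.38 and -0.50). The higher ones were Perp (0.45 and 0.14) and Sfn (0.84 and 0.93). Of these 8 markers, 2 were higher and 1 was lower in both cKO libraries than in both controls. Over all genes tested, these shares were 16.2% higher and 16.6% lower. Within both numbers, 37.6% of all genes tested were lower in cKO and 31.8% were higher.

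The summed values hide the make-up of each gene by transcript. Transcript values within a gene are estimates that split shared reads, and how they were made is not given in the sources used here. Yap1 was made mainly of a pair of coding transcripts, of 4171 and 4115 bases. Their coding sequences differ by 1 exon of 48 bases (16 codons), and the transcripts also differ outside the coding sequence. The exon is known in human YAP1 as an insertion in the transcriptional activation domain. It is shown in capitals with 15 bases of the neighbouring exons on each side, and lies at chr9:7950492-7950539 on the minus strand of GRCm38 (GENCODE M21).
Yap1 alternative exon: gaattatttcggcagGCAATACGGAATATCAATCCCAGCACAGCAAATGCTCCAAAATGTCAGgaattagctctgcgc
Of the 2 transcripts together, Yap1-201, which holds the exon, made up 65.7% and 59.6% in cKO 1 and cKO 2, against 63.1% and 71.3% in control 1 and control 2. The genotypes overlapped.

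Axl likewise had a pair of coding transcripts, of 4265 and 3899 bases, so most of the difference in length lies outside the coding sequence. The coding sequences differ by an exon of 27 bases (9 codons) at chr7:25773099-25773125 on the minus strand, shown in the same way.
Axl alternative exon: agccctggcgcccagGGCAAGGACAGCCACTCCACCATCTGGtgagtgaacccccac
Axl-201, with the exon, measured 16.5 and 23.4 FPKM in cKO 1 and cKO 2, against 13.0 and 14.5 FPKM in control 1 and control 2. Axl-202, without it, measured 1.65 and 3.67 FPKM in cKO 1 and cKO 2, against 1.15 and 1.61 FPKM in control 1 and control 2. Both forms were higher in each cKO library than in each control. For Axl-202 this was narrow, at 1.65 FPKM in cKO 1 against 1.61 FPKM in control 2. The longer form made up 90.9% and 86.5% of the pair in cKO 1 and cKO 2. In control 1 and control 2 it made up 91.9% and 90.0%. Nearly all of Wwtr1 came from a single coding transcript, Wwtr1-201, at 18.95 and 16.6 FPKM in cKO 1 and cKO 2, against 22.6 and 23.9 FPKM in control 1 and control 2.

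Tead3 differed from the other members in that most of its summed value came from transcripts annotated as retained introns. These made up 58.1% and 53.3% in cKO 1 and cKO 2, against 64.9% and 54.0% in control 1 and control 2. The coding transcript Tead3-206 measured 11.0 and 4.29 FPKM in cKO 1 and cKO 2, against 7.82 and 12.7 FPKM in control 1 and control 2. A transcript outside the annotation used, ENSMUST00000080572, did the reverse, with 2.05 and 9.14 FPKM in cKO 1 and cKO 2, against 2.99 and 0.34 FPKM in control 1 and control 2. Their sum was far steadier, at 13.1 and 13.4 FPKM in cKO 1 and cKO 2 and 10.8 and 13.0 FPKM in control 1 and control 2. The Tead3 difference was -0.47 with coding transcripts only and -0.29 with limma-voom. Both of these fits left out the transcript outside the annotation, so they do not cover the sum given above. Neither passed, and the cause of these moves was not tested. In Lats2 the short coding transcript Lats2-208 (681 bases) was listed at 1.41 and 4.60 FPKM in cKO 1 and cKO 2, against 1.74 and 0.07 FPKM in control 1 and control 2. The full-length Lats2-201 differed less, with 6.58 and 7.38 FPKM in cKO 1 and cKO 2, against 6.71 and 7.74 FPKM in control 1 and control 2.

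**Figure D4:**
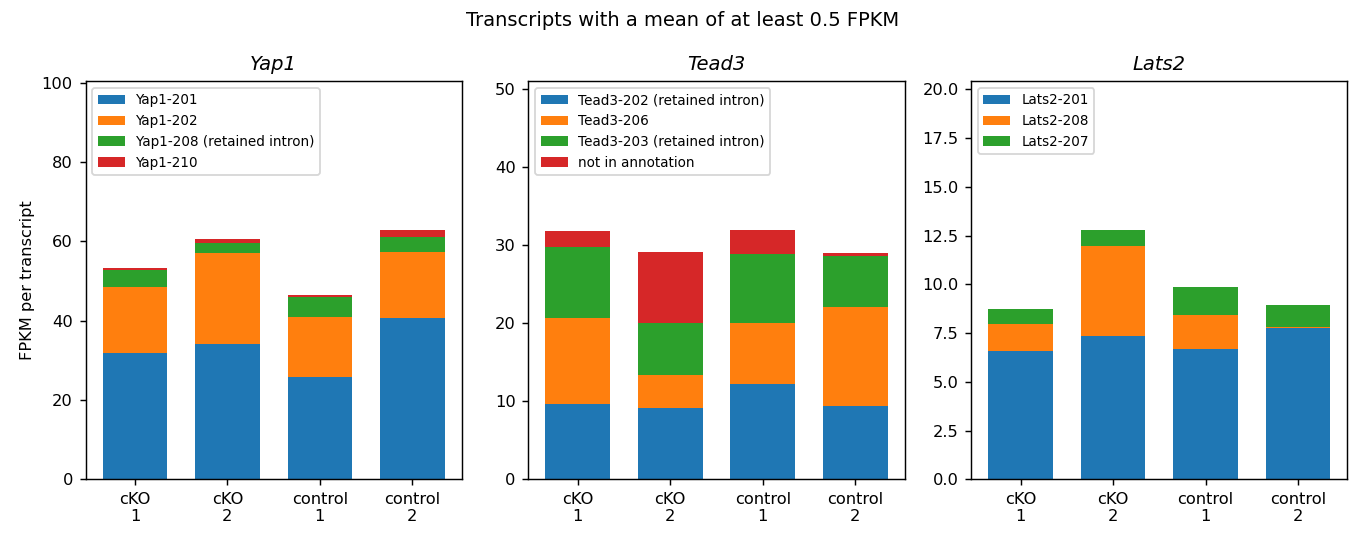
Stacked FPKM of the transcripts of Yap1, Tead3 and Lats2 with a mean of at least 0.5 FPKM, per library, cKO left of control. In Tead3, Tead3-206 (orange) and the transcript outside the annotation (red) trade places between cKO 2 and control 2 while the column height changes little, and in Lats2 the short Lats2-208 (orange) is tallest in cKO 2.

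The 9 members whose most abundant transcript is coding had a median of 8 exons and 4265 bases, beside 9 exons and 2820 bases for the 11746 tested genes with a coding main transcript. The letters GGACT, the most frequent core at which the METTL3-METTL14 enzyme methylates adenosine, occurred at a median of 0.719 per kilobase in the members, beside 1.06 in all such genes (quartiles 0.626 and 1.552). Ajuba, with 7 GGACT in 3397 bases, and Cyr61, with 4 in 2019 bases, had the highest density, whereas Ctgf had a single one in 2398 bases and Axl 4 in 4265 bases. Methylation itself was not measured in these libraries.

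In the fit with genotype alone, the wider pathway showed no call either. Of 22 further Hippo kinases, scaffolds and upstream regulators, 21 were tested and 0 passed limma's test at an adjusted or an unadjusted p under 0.05. Their median log2 difference was -0.10, beside -0.03 over all genes, with 11 lower and 3 higher in cKO within both numbers. Over all genes these shares were 37.6% lower and 31.8% higher. Libraries did not overlap for 7 of the 21 (2 higher, 5 lower), beside 32.9% of all genes, and the 4 genes with the smallest p were among them. Sav1, the scaffold that joins the MST and LATS kinases, measured 8.93 and 9.71 FPKM in cKO 1 and cKO 2, against 10.95 and 11.3 FPKM in control 1 and control 2. Mob1a, the LATS coactivator, measured 42.6 and 36.7 FPKM in cKO 1 and cKO 2, against 45.6 and 45.6 FPKM in control 1 and control 2. Taok2, a kinase upstream of MST, had a log2 difference of -0.18 ± 0.20 (SE). Stk4, which encodes the kinase MST1, lay on the other side at 22.1 and 23.7 FPKM in cKO 1 and cKO 2, against 19.3 and 20.9 FPKM in control 1 and control 2. Dchs1, a giant cadherin, was too low to be tested.

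Of the 6 TEAD and VGLL genes outside the members, 4 were tested, 0 passed, and the median log2 difference was 0.15. Beside Tead4 and Tead2, described above, Vgll3 and Vgll4 encode cofactors that bind TEAD factors in place of YAP. Vgll3 measured 10.2 and 9.03 FPKM in cKO 1 and cKO 2, against 8.73 and 7.52 FPKM in control 1 and control 2. Vgll4 had a log2 difference of 0.04 ± 0.27 (SE), and Vgll1 and Vgll2 were listed at 0 in every library.

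Outside the members, a published YAP and TAZ target set, derived in human tumours, held 17 genes. Ptpn14 was counted both here and among the Hippo genes above. Of the 17 genes, 15 were tested and 0 passed. Their median log2 difference was -0.12, with 8 lower and 2 higher within both numbers. Libraries did not overlap for 7 of the 15 (2 higher, 5 lower), beside 32.9% of all genes. Myof, which encodes the membrane repair protein myoferlin, had the smallest p and was the only one of them with an unadjusted p under 0.05. It measured 9.14 and 7.48 FPKM in cKO 1 and cKO 2, against 14.04 and 16.5 FPKM in control 1 and control 2, a log2 difference of -0.81 ± 0.22 (SE; unadjusted p = 0.0108, limma adjusted p = 0.959). Nuak2, a kinase, measured 20.5 and 19.0 FPKM in cKO 1 and cKO 2, against 15.1 and 15.4 FPKM in control 1 and control 2. Gadd45a, a stress-response gene, and Dock5, a guanine nucleotide exchange factor, had log2 differences of -0.46 ± 0.26 and -0.44 ± 0.25 (SE). Ankrd1 was listed at 0 in every library and Foxf2 was too low to be tested.

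**Figure D5:**
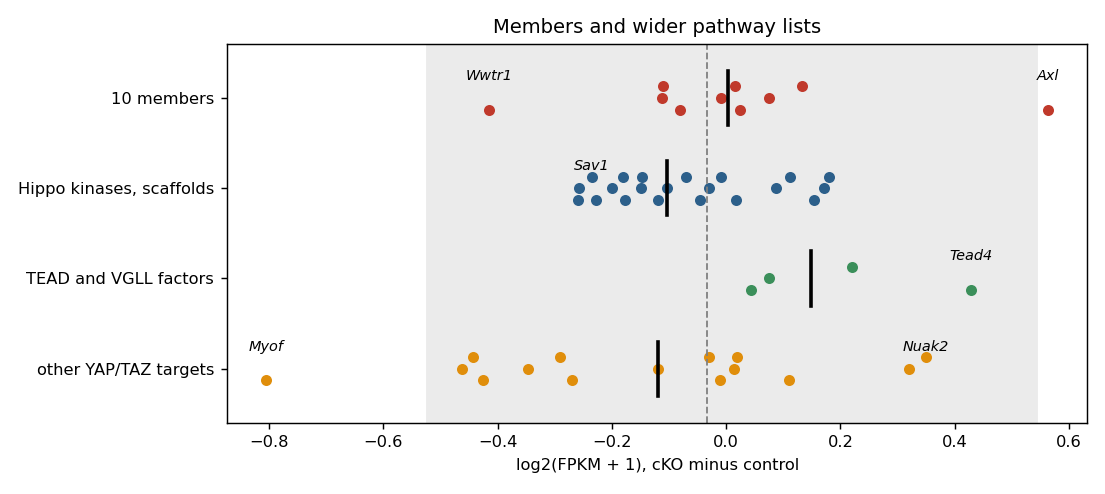
Each point is the log2(FPKM + 1) difference, cKO minus control, of a tested gene in the members and in 3 wider lists; black bars are list medians, the dashed line is the median of all genes (-0.03) and the grey band their 5th to 95th percentile. Myof at -0.81 and Axl at 0.56 lie outside the band.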

How the data were processed

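Expression was measured by RNA-seq in 2 cKO and 2 control samples. Per the labels' protocols, the NEBNext Ultra kit and a HiSeq instrument were used. The protocols name poly(A) mRNA isolation or rRNA depletion without saying which was applied. The submitters' processing notes name fastp, HISAT2, HTSeq and GRCm38 without role or version. The authors deposited 110295 transcript rows in an unnamed unit, taken here as FPKM because values times transcript length in kilobases sum to 1015550 to 1021998 per library. Columns named WT were taken as control by group and replicate number. Low values were whole multiples of 1 read in 94.2% to 95.4% of cases (tolerance 0.2 reads), which gave the implied depths and reads; an exact 0 is reported only as listed at 0. Symbols turned into dates (162 rows) were looked up by transcript ID in GENCODE M21, which held 98.13% of transcripts.

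FPKM were summed per symbol, and the 13817 genes reaching 1 FPKM in 2 or more libraries of 4 entered limma, as log2(FPKM + 1) (moderated, mean-variance trend, genotype only, Benjamini-Hochberg at 0.05, 2 residual degrees of freedom). The script was tested on simulated data, with changes far larger than the members' differences and no effect shared by libraries of a number. That test does not cover differences as small as those of the members. Members and lists were chosen with earlier results of these data known. Named were all members, Mettl14, the 4 genes with the smallest p of each wider list and the 2 most abundant of each marker list. Transcripts averaging at least 0.5 FPKM were named as well. Gm16016, the ratio of Yap1 to Wwtr1 and the further keratinocyte markers named were chosen after their values were seen. Intervals from implied reads are not given. Fits ran in R 4.3.3 with limma 3.58.1, and tables and plots were made in Python 3.11.15 (pandas 2.3.3, matplotlib 3.10.9).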

Additional observations from a re-analysis of the deposited data

How the results depend on the processing

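Alternatives were median-ratio scaling, a pseudocount of 0.1, no filter on low values, limma-voom on recovered reads, coding transcripts only, the replicate number as a block, and leaving out each library. Without the leave-one-out fits, 57 of 60 member results kept their sign and side of the threshold. With limma-voom, which leaves out the transcript of Tead3 that has no length, Tead1 turned to -0.063 and Lats2 to -0.065. With the replicate block, 900 genes passed (626 higher, 274 lower), and so did 1 member, Axl (adjusted p = 0.0467). The labels do not state that numbers pair libraries; deviations of same-numbered libraries correlated across genes at r = 0.722. Median-ratio scaling moved the median of all genes to -0.04 and gave 3 members without overlap, Amotl2 being lower as well.

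Leaving out a library leaves 1 in a group, assumed to vary like the other group. Then 71 and 9 genes passed without cKO replicates 1 and 2, 14 and 37 without control replicates 1 and 2, and 0 members did. Amotl2 (-0.20 to -0.02), Axl (0.34 to 0.78), Wwtr1 (-0.50 to -0.33), Mettl14 (-0.68 to -0.16) and the ratio of Yap1 to Wwtr1 (0.29 to 0.73) kept their sign. Signs turned for Ajuba (-0.47 to 0.51), Ctgf (-0.43 to 0.27), Cyr61 (-0.30 to 0.073), Lats2 (-0.11 to 0.38), Tead1 (-0.15 to 0.18), Tead3 (-0.075 to 0.056) and Yap1 (-0.14 to 0.29). Overlap of libraries has no value there. The alternatives for the ratio were chosen after seeing the data. The cause of these moves was not tested. As reported, the 95% interval of each of the 10 members includes 0. That of Axl does not with median-ratio scaling (limma unadjusted p = 0.041), no filter (0.0487) or the block (0.00285), nor without cKO replicate 1. That of Wwtr1 does not with the block (limma unadjusted p = 0.00927, adjusted p = 0.0822).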
